A study of Mus musculus with 1790 samples.

Results

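The genes described here are the axon guidance ligands and receptors: every gene row whose symbol belongs to the Eph receptors, ephrins, semaphorins (classes 3 to 7), plexins, neuropilins, Robo receptors, Slits, Unc5 receptors, netrins, netrin-Gs or Dcc. By this rule on symbols 73 genes were members, among 49915 gene symbols over all tables. They were 14 Eph receptors, 8 ephrins, 20 semaphorins, 14 plexins and neuropilins (3 of them the antisense transcripts Plxna4os1, Plxna4os2 and Plxna4os3, which lie opposite Plxna4), 7 Robo and Slit genes and 10 netrins, netrin-Gs, Unc5 receptors and Dcc. Between 59 and 73 members had a row in each table and 54 had a row in every table. Plxnc1, Sema3e and Unc5d were not analysed at P15, nor Slit2, Slit3 and Robo3 at P30.

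Axon guidance molecules steer growing axons and migrating neurons by attraction and repulsion. Ephrins are held in the membrane of one cell and signal through Eph receptor tyrosine kinases on a touching cell, Slits are secreted and act through Robo receptors, and netrins attract through Dcc and repel through Unc5 receptors. Semaphorins act through plexins, and most secreted class 3 semaphorins also need the neuropilins Nrp1 or Nrp2. In the embryonic basal forebrain these systems are known for guiding cortical interneurons (INs) from the ganglionic eminences and the preoptic area (POA) around the striatum into the cortex.

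The study followed neurogliaform cells (NGCs), cortical INs that release GABA diffusely, from mouse E14.5 embryos to the postnatal somatosensory cortex. Droplet libraries were made from wild-type E14.5 POA (2106 cells) and caudal ganglionic eminence (CGE, 4115 cells). Cells captured on C1 plates were E14.5 POA FlashTag+ cells from wild-type embryos (352), E14.5 POA cells of Htr3a-GFP+/Hmx3-Cre;R26tdTOM+ embryos (418, called tdTOM+/GFP+) and cortical cells of Htr3a-GFP+/Hmx3-Cre;R26tdTOM+ or R26tdTOM- animals at P15 (196 and 194) and P30 (301 and 280), and 47 tdTOM+ cells were collected by patch pipette between P14 and P25. Apart from the FlashTag injection of the FlashTag+ embryos, no group received a treatment. Per the methods all cells on plates were sorted by fluorescence: the brightest FlashTag+ cells, GFP+/tdTOM+ E14.5 cells, and cortical GFP+ and GFP+/tdTOM+ cells. Patch-seq cells were picked by their fluorescence in slices. FlashTag is a dye injected into the ventricle, which is taken up by cells in division along its wall, GFP from the Htr3a transgene marks INs with the serotonin receptor, and tdTOM marks cells whose ancestors used the Hmx3-Cre transgene, so it reports lineage and not Hmx3 at the time of collection. The strain of the droplet and FlashTag+ embryos is uncertain. For the droplet embryos the labels and a methods passage give C57BL/6, while another methods passage names CD1 mice. For the FlashTag+ embryos the labels give C57BL/6 and the methods name CD1 mice. Per the methods the transgenic mice were kept on a C57BL/6 background. The cortical cells carry subtype labels that the authors assigned from the same expression values, and the cells compared here as Dock5 (Lamp5 Plch2 Dock5) and Lsp1 (Lamp5 Lsp1) are tdTOM+ only.

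Per the methods brains were pooled at P15 and P30, and the patch-seq cells came from mice of several ages, but the labels tie no cell to an animal. Each group was therefore handled as 1 sample, and the comparisons carry no test. For each group the counts of its cells were added up and given per 1000000 counts (CPM). A member counted as measured where the average of both groups' CPM was at least 10 and at least 10 cells of both groups together held a count, and it was called higher where the log2 fold of (CPM + 10) was at least 1, which is 2-fold on that scale. Intervals beside CPM values are exact 95% Poisson intervals of the summed count, and they cover counting error only. Reads of 1 cell are not independent draws of the group, so these intervals are too narrow, most of all for C1 cells, which hold many counts each. The sum cannot tell more cells with a transcript from more transcripts per cell.

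Summed counts were 21887059 UMIs in POA and 27516180 in CGE droplets, with medians of 7574 and 5710 per cell, and 12 barcodes were shared by both libraries. C1 cells held medians of 213229 to 356989.5 counts, and patch-seq cells from 33826 to 15968484. Of the 73 members, 56 were measured in at least 1 of 11 comparisons and 14 in every one. 17 were measured in none, among them Efna1, Epha1, Epha2, Ephb4, Ntn5, Ntng2, Plxnd1, Robo4, Slit3 and the 3 antisense transcripts. 42 members were called in at least 1 comparison.

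To see how POA and CGE, the embryonic sources of these INs, differ in guidance molecules, the droplet libraries were compared first. CGE cells held more Epha3, Epha4 and Epha5, and POA cells held more of the ligands Slit2, Efna5 and Ntn1, of the membrane-anchored netrin-G1 gene Ntng1 and of the semaphorin co-receptors Nrp1 and Nrp2. Of 67 members with a row in both libraries 39 were measured, 6 were called higher in POA, where 2.00% of 8697 measured genes were, and 3 higher in CGE, where 1.35% were. The median absolute log2 fold was 0.61 over the measured members and 0.17 over all measured genes.

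The 3 members called higher in CGE were Eph receptors of the A class, which bind the lipid-anchored A-type ephrins. Epha5 (ENSMUSG00000029245, GRCm38 chromosome 5, 84054761 to 84417382, minus strand) was at 104 CPM in POA (99.3 to 108) and 515 CPM in CGE (506 to 523), a log2 fold of -2.21. Epha3 (ENSMUSG00000052504, chromosome 16, 63543534 to 63864175, minus strand) was at 38.3 CPM in POA and 140.5 CPM in CGE (log2 fold -1.64). For Epha4, which binds ephrins of both classes, the levels were 85.7 CPM and 246 CPM (log2 fold -1.42). The other 4 measured Eph receptors (Epha7, Ephb1, Ephb2 and Ephb3) lay on the POA side and below the line, from 0.59 for Ephb3 to 0.85 for Ephb2.

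Among ligands, Slit2 (ENSMUSG00000031558, chromosome 5, 47983138 to 48307733, plus strand), a secreted repellent read by Robo receptors, was at 87.9 CPM in POA (84.0 to 91.9) and 11.9 CPM in CGE (10.6 to 13.2), a log2 fold of 2.16. Its receptors Robo1 and Robo2 had log2 folds of 0.66 and -0.12 and were not called. Efna5 (ENSMUSG00000048915, chromosome 17, 62604184 to 62881317, minus strand), an A-type ephrin that binds EphA receptors, was at 145 CPM in POA and 37.1 CPM in CGE (log2 fold 1.72). Of the EphA receptors measured, Epha3, Epha4 and Epha5 were thus higher in CGE, whereas Epha7 lay on the POA side with Efna5. Ntn1 (ENSMUSG00000020902, chromosome 11, 68209364 to 68400823, minus strand), the secreted netrin-1, was at 41.9 CPM and 9.19 CPM (log2 fold 1.43).

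The neuropilins bind class 3 semaphorins together with plexins. Nrp1 was at 134 CPM in POA and 36.2 CPM in CGE (log2 fold 1.64). For Nrp2 the values were 97.1 and 39.7 CPM (log2 fold 1.11), and Ntng1 was at 35.2 and 8.18 CPM (log2 fold 1.31). None of the 7 measured plexins and none of the 9 measured semaphorins was called. Just outside the line lay Efnb3 and Plxna1, both at log2 folds of 0.96, and just inside it Nrp2.

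Marker sums of several cell types differed between the libraries, and whether these reflect region was not tested. Region and library cannot be told apart. Summed CPM of the 5 red blood cell markers was 1953 in POA and 489.6 in CGE, that of the 3 Cajal-Retzius markers (Trp73, Lhx1, Lhx5) 178 and 4.54, and that of the 7 glutamatergic markers 136 and 76.1, with no marker of these lists at 0. The GABAergic list (Gad1, Gad2, Slc32a1) summed to 199 CPM in POA and 392 in CGE, and Htr3a was at 85.3 and 261. The 7 progenitor markers named below summed to 2246 and 4126 CPM, and the 7 neuron markers to 4614 and 4490. In cells with no count of a glutamatergic or Cajal-Retzius marker (828 POA and 3288 CGE cells, an alternative added after seeing the data), all calls but that of Nrp2 held. This filter kept 828 of 2106 POA and 3288 of 4115 CGE cells, so it removed a larger part of POA. The Cajal-Retzius list also summed to 48.7 CPM in tdTOM+/GFP+ and 6.87 CPM in FlashTag+ POA cells, and which cells hold it was not tested. Epha5, Epha3, Epha4, Slit2, Efna5 and Nrp1 passed the line under all 9 alternative settings, whereas Nrp2 fell below it under 5 of them and Ntn1 and Ntng1 under 2 each.

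Cells of each library were then divided by marker counts into progenitor-like and post-mitotic-like cells, and each class was compared between regions. A cell was progenitor-like where 7 progenitor markers (Nes, Hes5, Hes1, Sox9, Fabp7, Top2a, Mki67) summed to more counts than 7 neuron markers (Dcx, Tubb3, Gad1, Gad2, Dlx5, Dlx6, Stmn2), and post-mitotic-like where they summed to fewer. By this rule 539 POA cells were progenitor-like and 1558 post-mitotic-like, and 1336 and 2738 in CGE. In POA 24 and 28 of these cells, and in CGE 71 and 70, lay within 2 counts of the dividing line. The classes share their cells with the comparison of whole libraries and are not independent of it. They were not matched between regions. In progenitor-like cells the progenitor markers summed to 7480 CPM in POA and 9447 in CGE, and the neuron markers to 1554.5 and 1201. In post-mitotic-like cells the GABAergic list summed to 239 CPM in POA and 571 in CGE, and Htr3a was at 104 and 391 CPM. The part of these differences in the folds was not tested.

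Slit2, Ntn1 and Efna5 were higher in POA in both classes, and Epha3 and Epha5 were higher in CGE in both. These were 3 and 2 of 34 members measured in both classes, where 0.988% and 0.190% of all 7897 such genes were called. In progenitor-like cells 6 of 35 members were called higher in POA (1.58% of measured genes) and 2 higher in CGE (0.449%). In post-mitotic-like cells 6 of 41 were called higher in POA (1.96%) and 4 higher in CGE (1.28%).

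In progenitor-like cells Slit2 was at 133 CPM in POA and 20.1 CPM in CGE (log2 fold 2.25), Ntn1 at 94.1 and 17.6 CPM (1.92), and Efna5 at 108 and 28.2 CPM (1.63). In post-mitotic-like cells the log2 folds of these 3 ligands were 2.31, 1.37 and 1.66. Epha3 went from 51.5 against 204 CPM in progenitor-like cells (log2 fold -1.80) to 34.6 against 103 CPM in post-mitotic-like cells (-1.34). Epha5 showed the opposite order, at 64.0 against 239.6 CPM (log2 fold -1.75) and 115 against 684 CPM (-2.47). Whether the folds of the classes differ was not tested.

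Other members were called in 1 class. In progenitor-like cells these were the B-type ephrin Efnb3 (75.7 against 32.1 CPM, log2 fold 1.03), the Slit receptor Robo1 (1.21) and Nrp2 (1.39), all higher in POA. In post-mitotic-like cells Nrp1 (154 against 41.1 CPM, log2 fold 1.68), Ntng1 (1.57) and the transmembrane semaphorin Sema6a (1.28) were higher in POA, and Epha4 (87.1 against 293 CPM, log2 fold -1.64) and Plxna2 (-1.11), a receptor for Sema6a, were higher in CGE. In progenitor-like cells the Epha4 fold was -0.95, the Nrp1 fold 0.97 and the Plxna2 fold -0.46, in each case with the same sign and below the line. Without cells holding a glutamatergic or Cajal-Retzius marker the calls of Efnb3, Robo1 and Nrp2 in progenitor-like cells and of Ntn1 and Sema6a in post-mitotic-like cells were lost. That left 319 of 539 POA and 1068 of 1336 CGE progenitor-like cells. Of post-mitotic-like cells 506 of 1558 were left in POA and 2190 of 2738 in CGE, so the cells compared also changed more in POA.

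**Figure D1:**
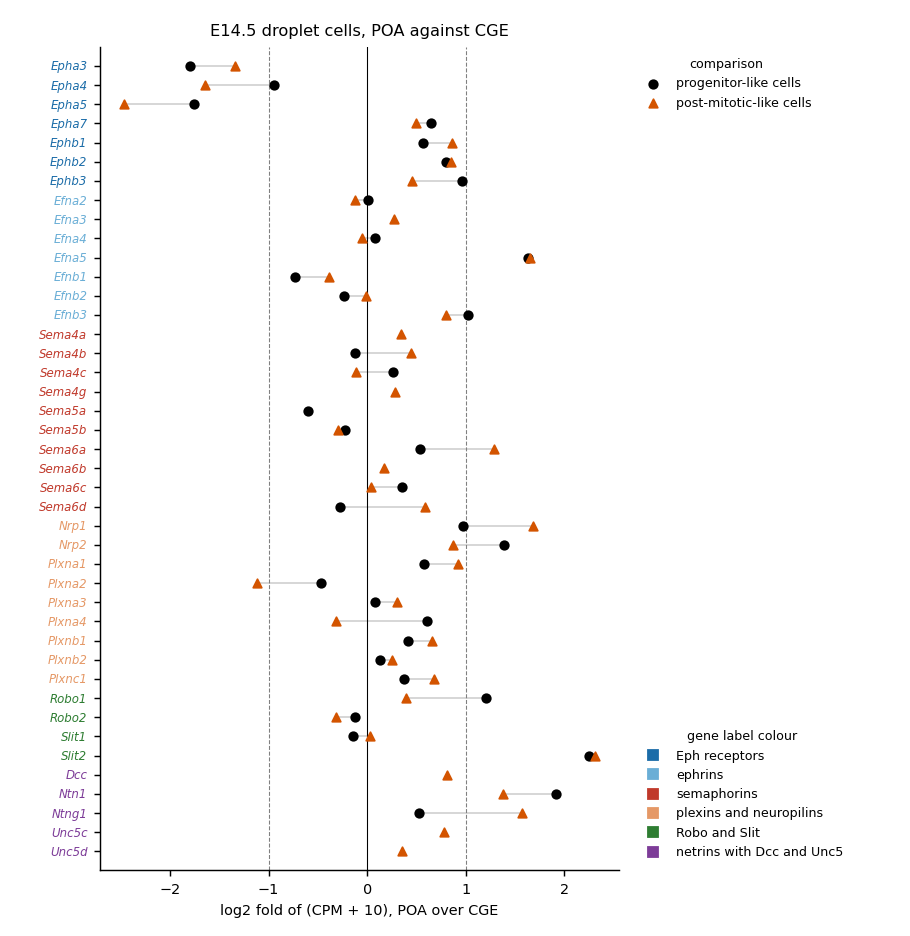
Log2 fold of (CPM + 10), POA over CGE, for each member measured in progenitor-like cells (circles) or post-mitotic-like cells (triangles) of the E14.5 droplet libraries. Dashed lines mark the 2-fold line on either side of 0, and grey bars join both values of a gene. Epha3 and Epha5 lie left of the line in both classes, and Slit2, Ntn1 and Efna5 right of it.

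The bases before the start sites of the members called in both classes are shown because these genes moved with region in both classes. They are RefSeq promoters of GRCm38.p6, read 5′ to 3′ on the gene's strand, limited to the 250 bases before the RefSeq start. The gene positions given above are from GENCODE, where Slit2 starts at 47983138, so the end of its window lies inside that gene. Among the 73 members 61 had a promoter entry in that table, and Ntn1 had none. Capitals mark TAAT on either strand, the core bound by many homeodomain factors, and CAAGTG on either strand, the core of NKX-type homeodomain sites. Overlapping matches were counted each.

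Slit2, chr5:47982905-47983154, plus strand, higher in POA: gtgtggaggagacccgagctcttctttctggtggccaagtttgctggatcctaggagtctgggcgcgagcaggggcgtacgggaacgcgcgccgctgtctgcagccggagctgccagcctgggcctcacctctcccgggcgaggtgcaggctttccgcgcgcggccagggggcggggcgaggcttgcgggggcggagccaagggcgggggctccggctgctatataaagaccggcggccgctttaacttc
Efna5, chr17:62881318-62881567, minus strand, higher in POA: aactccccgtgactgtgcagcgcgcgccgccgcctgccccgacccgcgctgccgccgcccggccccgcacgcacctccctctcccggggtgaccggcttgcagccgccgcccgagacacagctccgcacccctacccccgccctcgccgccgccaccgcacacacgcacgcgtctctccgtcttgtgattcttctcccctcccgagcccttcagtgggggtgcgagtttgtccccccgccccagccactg
Epha5, chr5:84417383-84417632, minus strand, higher in CGE: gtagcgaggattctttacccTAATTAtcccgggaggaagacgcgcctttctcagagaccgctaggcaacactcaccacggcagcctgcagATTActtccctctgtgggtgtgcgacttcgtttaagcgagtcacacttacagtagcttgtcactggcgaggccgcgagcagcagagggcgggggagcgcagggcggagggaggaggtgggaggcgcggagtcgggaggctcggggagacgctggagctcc
Epha3, chr16:63864176-63864425, minus strand, higher in CGE: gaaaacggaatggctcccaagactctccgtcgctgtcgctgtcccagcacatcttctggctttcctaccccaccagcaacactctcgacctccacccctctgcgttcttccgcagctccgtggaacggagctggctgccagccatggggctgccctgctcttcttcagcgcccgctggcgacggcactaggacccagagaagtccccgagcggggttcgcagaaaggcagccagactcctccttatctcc

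Epha5 held 3 TAAT matches, 2 of them overlapping in the run TAATTA, and the other 3 windows held none. TAAT was present in 54.9% of all 32851 promoter windows of this length, and in 29 of the 77 windows of members (37.7%). CAAGTG was in none of the 4 windows and in 11.6% of all windows, and the E-box CANNTG was in none of the 4 and in 66.2% of all. Share of G and C was 69.6% for Slit2, 74.8% for Efna5, 62.4% for Epha5 and 62.8% for Epha3, against a median of 52.4% over all windows. A match is a description of the letters in this window only.

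Within each region, post-mitotic-like cells were compared with progenitor-like cells to follow the members across differentiation. The neuropilin Nrp2 and the Slit receptor Robo2 were higher in post-mitotic-like cells of POA and of CGE, 2 of 34 members measured in both regions, where 2.27% of genes were called in both. No member was called higher in progenitor-like cells of both regions, where 3.75% of genes were. In POA 3 of 40 members were called higher in post-mitotic-like cells (2.84% of measured genes) and 1 higher in progenitor-like cells (5.37%). In CGE the counts were 8 of 34 (5.33%) and 3 (5.75%). The marker lists that divided the cells are not members, but the classes differ in many genes that accompany them.

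Robo2 was at 61.3 CPM in post-mitotic-like and 18.3 CPM in progenitor-like cells of POA (log2 fold 1.34), and at 79.0 and 20.8 CPM in CGE (1.53). For Nrp2 the log2 folds were 1.04 in POA (111 against 49.0 CPM) and 1.56 in CGE (56.3 against 12.6 CPM). Nrp1 was called in POA, at 154 against 65.0 CPM (log2 fold 1.13), and had a log2 fold of 0.42 in CGE. The ligand Ntn1 went the other way in POA, at 26.9 CPM in post-mitotic-like and 94.1 CPM in progenitor-like cells (log2 fold -1.50), and its fold in CGE was -0.96.

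In CGE the receptors Epha5 (log2 fold 1.47), Robo1 (1.25), Plxna4 (1.24) and Plxna2 (1.20) were higher in post-mitotic-like cells. The semaphorins Sema6a (-1.24), Sema6d (-1.20) and Sema5a (-1.14) were higher in progenitor-like cells. Sema6a was at 24.8 and 71.8 CPM. Epha3 and Epha4 were not called in either region, with log2 folds of -0.46 and 0.08 in POA and -0.93 and 0.77 in CGE. Epha5 in CGE was the only named call of these comparisons that passed the line under all 9 alternative settings, and with 50 CPM added in place of 10 no member was called in POA.

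The C1 cells allowed a similar comparison at far greater depth per cell. The tdTOM+/GFP+ cells, immature INs of the Hmx3 lineage, were set against FlashTag+ POA cells, which took up the dye in division. FlashTag+ cells held more of the ligands Ntn1, Slit2, Sema3c, Sema5a, Sema5b, Sema6a, Sema6d, Efna4 and Efnb1 and of the receptors Epha3, Ephb1, Robo1, Plxnb1 and Plxnb2. The tdTOM+/GFP+ cells held more Plxna2, Nrp1, Nrp2, Unc5a, Ntng1, Efnb3 and Sema4g, while the plexins Plxna1, Plxna3 and Plxna4 had log2 folds of -0.16, 0.11 and -0.01. 42 of the 63 members with a row in both tables were measured. Of these 7 were called higher in tdTOM+/GFP+ cells, where 7.74% of 9615 genes were, and 14 higher in FlashTag+ cells, where 14.49% were. By family, 5 of 10 measured semaphorins were called higher in FlashTag+ cells and 1 in tdTOM+/GFP+ cells, while of 9 measured plexins and neuropilins 2 were higher in FlashTag+ and 3 in tdTOM+/GFP+ cells.

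Ntn1 was at 3.30 CPM in tdTOM+/GFP+ and 83.0 CPM in FlashTag+ cells (log2 fold -2.81). Per cell it ranged from 0 to 349 CPM in tdTOM+/GFP+ and from 0 to 1297 CPM in FlashTag+ cells, with a median of 0 in both groups, so the difference lay in the cells above the median and the groups overlapped. Slit2 was at 45.8 and 255 CPM (log2 fold -2.25), with per-cell medians of 0 and 6.37 CPM, and with highest values of 917 and 4176 CPM. In the same direction went the semaphorins Sema5b (19.8 against 159 CPM, log2 fold -2.50) and Sema6d (-1.87) and the receptors Ephb1 (42.5 against 214 CPM, log2 fold -2.09) and Epha3 (-1.82). Epha4 had a log2 fold of 0.69 and was not called.

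Higher in tdTOM+/GFP+ cells were Plxna2, at 161 against 40.5 CPM (log2 fold 1.76), with per-cell medians of 56.3 and 0 CPM and highest values of 1639 and 1443 CPM. Nrp1 was at 219.7 against 84.6 CPM (log2 fold 1.28), with medians of 95.4 and 0 CPM, and Nrp2 at 175 against 59.7 CPM (1.41), with medians of 51.7 and 0 CPM. The median tdTOM+/GFP+ cell thus held these receptors and the median FlashTag+ cell held none, although the highest FlashTag+ cells reached the tdTOM+/GFP+ range. Efnb3 was at 333 against 132 CPM (log2 fold 1.27), with medians of 260.1 and 0 CPM, and Ntng1 (1.49) and the netrin receptor gene Unc5a (1.17) were also called.

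Sort, genotype, dye injection, plate and possibly strain cannot be told apart here. Each group filled its own table, and only the FlashTag+ cells came from dye-injected wild-type embryos. Summed CPM of the 7 progenitor markers was 238 in tdTOM+/GFP+ and 6162 in FlashTag+ cells, that of the 4 astrocyte markers, which radial glia share, 9.74 and 1399, and that of Hmx2 and Hmx3 164 and 0.913. Red blood cell markers summed to 0.00648 and 2.04 CPM. Of the 12 named calls 9 passed the line under all 10 alternative settings, and those of Epha3, Ntng1 and Unc5a were lost under 2 or 3.

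**Figure D2:**
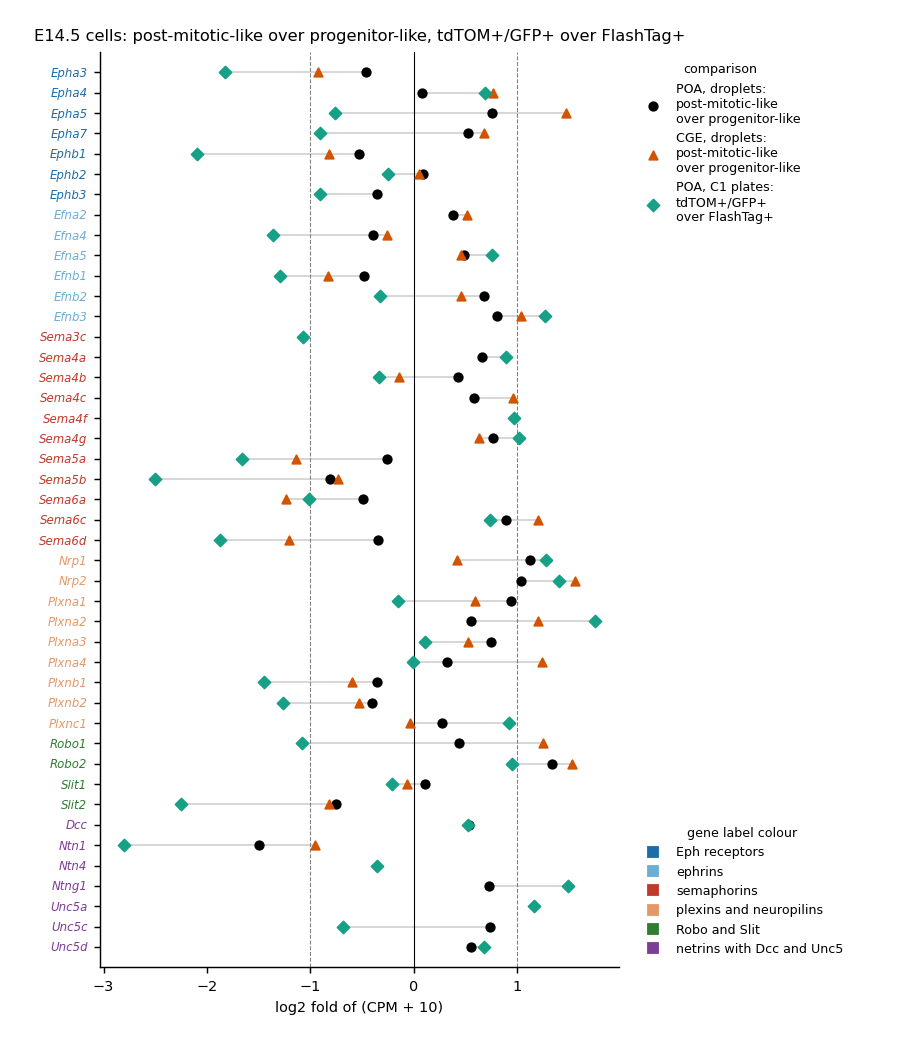
Log2 fold of (CPM + 10) of each member measured in at least 1 of 3 E14.5 comparisons: post-mitotic-like over progenitor-like cells in POA droplets (circles) and CGE droplets (triangles), and tdTOM+/GFP+ over FlashTag+ cells on C1 plates (diamonds). Dashed lines mark the 2-fold line. Nrp2 lies right of it in all 3 comparisons, and Ntn1 left of it in POA droplets and C1 plates.

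In the postnatal cortex, the members were compared between both NGC subtypes. Ntn1 and the transmembrane ligand Sema6a were higher in Dock5 cells at P15 and at P30, and the semaphorin Sema6d and the semaphorin receptor Plxna4 were higher in Lsp1 cells at both ages. These were 2 and 2 of 27 members measured at both ages, where 1.41% and 1.00% of 7473 genes were called in both. At P15 36 Dock5 and 33 Lsp1 cells were compared, and 7 of 33 members were called higher in Dock5 (8.12% of measured genes) and 7 higher in Lsp1 cells (7.68%). At P30 (76 and 35 cells) the counts were 4 of 34 (8.75%) and 3 (6.91%). The subtype labels were set by the authors from these expression values, so the groups were formed on data that include the members.

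At P15 Ntn1 was at 71.4 CPM in Dock5 and 22.8 CPM in Lsp1 cells (log2 fold 1.31). Per cell it ran from 0 over a median of 8.27 to 781 CPM in Dock5 cells and from 0 over a median of 0 to 204 CPM in Lsp1 cells. At P30 it was at 58.7 and 0.712 CPM (log2 fold 2.68), where the Lsp1 value rests on 7 counts against 1126 in Dock5 cells, a ratio of 82.5 with a 95% counting interval of 39.9 to 206. The median cell held 0 in both subtypes at P30, so Ntn1 was found in a part of the Dock5 cells.

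Sema6a was broader. At P15 it was at 364 CPM in Dock5 cells (per cell 0, median 258, highest 1991) and 146 CPM in Lsp1 cells (0, 92.4 and 706), a log2 fold of 1.26. At P30 the levels were 391 and 183 CPM (log2 fold 1.05), with per-cell medians of 228 and 108 CPM. The subtypes overlapped over most of their range at both ages.

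Plxna4, a receptor for Sema6a and class 3 semaphorins, was at 51.6 CPM in Dock5 and 155 CPM in Lsp1 cells at P15 (log2 fold -1.42), with per-cell medians of 4.13 and 79.6 CPM. At P30 it was at 20.0 and 94.9 CPM (log2 fold -1.80), with medians of 0 and 5.58 CPM. For Sema6d the log2 folds were -1.10 at P15 (15.6 against 44.8 CPM) and -1.48 at P30 (13.3 against 54.7 CPM).

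Calls at a single age were more numerous. At P15 the Eph receptor Epha5 was higher in Dock5 cells, at 482 against 218 CPM (log2 fold 1.11), and so were Epha8 (1.47), Robo1 (1.38) and Sema4f (1.15). Epha8 rests on 227 counts in Dock5 and 13 in Lsp1 cells, a ratio of 16.0 with a counting interval of 9.18 to 30.5. Higher in Lsp1 cells at P15 were the ligand Efna5, at 25.9 in Dock5 against 155 CPM in Lsp1 cells (log2 fold -2.21), the receptors Ephb6 (-1.75), Ephb1 and Plxna3 (-1.10), and Sema6c (-1.14). For Ephb1 the Dock5 cells held 3 counts, all in 1 cell, and the Lsp1 cells 263, and the Lsp1 level was 95.6 times the Dock5 level with a counting interval of 32.3 to 466. A single Dock5 cell carried 90.2% of the Ephb6 counts of Dock5 cells.

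At P30 Epha4 was higher in Dock5 cells, at 209 against 98.1 CPM (log2 fold 1.02), with per-cell medians of 103 and 6.26 CPM and highest values of 897 and 638 CPM. At P15 its log2 fold was 0.92, just below the line. Epha3 was not called at either age, at -0.39 and -0.31, with levels of 41.0 and 57.0 CPM at P15 and 40.2 and 52.2 CPM at P30 in Dock5 and Lsp1 cells. The netrin receptor gene Dcc was higher in Dock5 cells at P30 (510 against 5 counts, ratio 52.3, counting interval 22.3 to 162), and the Unc5-family receptor gene Unc5d was higher in Lsp1 cells (45.1 in Dock5 against 278 CPM in Lsp1, log2 fold -2.39). Just outside the line lay Plxnb1 at P15 and Plxnc1 and Nrp2 at P30, with log2 folds of 1.00 (below the line before rounding), 0.93 and -0.93.

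The analysed genes of the glutamatergic, red blood cell, immune and Cajal-Retzius marker lists summed to at most 3.56 CPM in any of these 4 groups, but at P30 these were only 3 of 7, 1 of 5, 1 of 5 and 0 of 3 genes. The oligodendrocyte list summed to 42.6 CPM in Dock5 and 5.58 in Lsp1 cells at P15 and to 32.8 and 11.3 at P30, and the vascular list to 28.0 and 8.78 at P15 and to 17.9 and 0.610 at P30. The astrocyte list summed to 32.3 and 40.9 CPM at P15 and to 8.61 and 14.6 at P30. Their part in the folds was not tested. Gad2 and Slc32a1, which mark GABAergic neurons, were present, and the NGC marker list (Lamp5, Ndnf, Npy, Reln) summed to 18480.0 and 15828 CPM in Dock5 and Lsp1 cells at P15 and 8336 and 11393 CPM at P30. Efna5 and Plxna4 at P15 and Ntn1, Plxna4 and Unc5d at P30 passed the line under all 10 alternative settings, while the other 15 named calls were each lost under at least 1. Sema6a at P30 fell below the line under 4 of these settings and Sema6d at P15 under 5. With plate rows 1 to 20 only, the Sema6a call at P15 was lost, and with rows 21 to 40 only, that at P30.

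Patch-seq cells of both subtypes, 20 Dock5 and 27 Lsp1, gave another view of this contrast by another method. Per the methods they were taken across the cortical layers, and the plate cells from dissected upper layers. Between plate and patch-seq cells, method, layer and age cannot be told apart. In patch-seq cells Sema6a was again higher in Dock5 cells, at 90.2 against 33.6 CPM (log2 fold 1.20), with per-cell medians of 58.8 and 1.69 CPM. Sema3e, a secreted class 3 semaphorin, was at 227 against 57.5 CPM (log2 fold 1.81), with medians of 143 and 23.6 CPM, whereas in P30 plate cells its log2 fold was 0.41. Robo2 (1.29) and Efna2 (1.45) were also called in Dock5 cells. Of 33 measured members 4 were higher in Dock5 (6.98% of 8887 genes) and 3 higher in Lsp1 cells (8.93%), the latter Plxna2 (-1.72), Ntng1 (-1.39) and Efna5 (-1.25). Epha3 and Epha4 had log2 folds of 0.41 and -0.72. Of the other members called between the subtypes at both plate ages, Plxna4 and Sema6d had log2 folds of -0.03 and -0.27 and were not called. Ntn1 was not measured in these cells.

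The 3 calls in Lsp1 cells rested on few cells. The highest Lsp1 cell held 71.5% of the Plxna2, 71.9% of the Ntng1 and 77.1% of the Efna5 counts of all Lsp1 cells, and 1 Lsp1 cell held 30% of all Lsp1 counts. Without the deepest cell of each subtype, an alternative added after seeing the data, all 3 were lost, and averaging CPM over cells turned the Plxna2 fold to 0.14. Patch-seq groups also differed in markers of other cells: the oligodendrocyte list summed to 1239 CPM in Dock5 and 5938 in Lsp1 cells, the immune list to 163 and 366 and the red blood cell list to 1241 and 1845. Their part in the folds was not tested. Of the calls in Dock5 cells, Sema3e passed the line under all 9 alternative settings. Efna2 was lost under 3 of them, among these leaving out the cell with the largest count. Robo2 was lost under 3, among these the mean CPM of single cells, and Sema6a under 2, among these cells of P15 to P18 only.

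To see what sets NGCs apart from other Htr3a-GFP+ INs, the Dock5 and Lsp1 cells together were compared with tdTOM- cells carrying any other subtype label, most of them Vip, Sncg or other Lamp5 subtypes. NGCs held more of the netrin receptor gene Unc5c, the semaphorin Sema5a, the receptor Ephb3 and the ligand Efna5 at both ages, and less Sema5b. These were 4 and 1 of 37 members measured at both ages, where 1.83% and 2.55% of 7973 genes were called. At P15 69 NGCs and 89 other cells were compared, with 6 of 40 members higher in NGCs (5.57% of measured genes) and 7 lower (7.02%). At P30 111 and 96 cells gave 9 of 44 higher (6.28%) and 9 lower (6.32%). The NGCs are the same cells as in the comparison of subtypes above, and sort and subtype were set together in these groups.

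Unc5c (ENSMUSG00000059921, chromosome 3, 141465216 to 141834924, plus strand) was at 582 CPM in P15 NGCs and 64.7 CPM in the other cells (log2 fold 2.99). Per cell the lowest, median and highest values were 0, 485 and 2283 CPM in NGCs and 0, 4.91 and 805 CPM in the other cells. At P30 it was at 521 and 139.8 CPM (log2 fold 1.82), with medians of 357 and 6.80 CPM. Both NGC subtypes held it, with log2 folds between them of -0.51 and -0.27.

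Sema5a (ENSMUSG00000022231, chromosome 15, 32244810 to 32696341, plus strand), a transmembrane semaphorin, was at 566 and 103 CPM at P15 (log2 fold 2.35), with per-cell medians of 455 and 9.72 CPM. At P30 the levels were 396 and 63.3 CPM (log2 fold 2.47), with medians of 217 and 5.74 CPM. Between Dock5 and Lsp1 cells its log2 fold was 0.00 at P15 and 0.63 at P30. Sema5b, of the same class, was at 3.56 in NGCs against 72.4 CPM at P15 (log2 fold -2.60). At P30 it held 10 counts in NGCs and 927 in the other cells, which were 109 times higher with a counting interval of 58.8 to 227.

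Ephb3 had log2 folds of 1.16 and 1.04 at P15 and P30, and Efna5 of 1.32 and 1.16. Both were at 0 in the median cell of every group here. Ephb3 was above the level of the other cells in both NGC subtypes, at 58.4 CPM in Dock5 and 55.1 in Lsp1 cells against 19.9 at P15 and at 35.1 and 44.3 against 13.4 at P30. Over the labelled subtypes, with the sorts pooled, Ephb3 was highest in Dock5 cells at P15 (56.4 CPM). At P30 it was highest in other Lamp5 cells, whose labels had under 10 cells each (45.2 CPM). Its higher level in NGCs at P30 thus need not hold against every other subtype. For Efna5 at P15 the Lsp1 cells alone were higher, at 155 CPM, with Dock5 cells at 25.9 against 29.2 CPM in the other cells. At P30 Dock5 cells were at 49.6, Lsp1 cells at 22.1 and the other cells at 12.5 CPM. At P15 the receptors Epha10 (1.50) and Ephb6 (1.48) were also higher in NGCs, and Nrp1 (1.78 against 38.2 CPM, log2 fold -2.03), Efnb3 (-1.79), Unc5a (-1.46), Sema4f (-1.17) and Dcc (-1.11) lower. Ephb6 rests on 16 counts in the other cells against 396, and its level was 3.88 CPM in Dock5 and 36.7 CPM in Lsp1 cells.

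At P30 Sema6a (321 against 77.1 CPM, log2 fold 1.93), Sema3e (364 against 94.0 CPM, 1.85), Epha4 (171 against 41.2 CPM, 1.82), Unc5d (1.45) and Ntn1 (1.01) were higher in NGCs. The last 2 were split between the subtypes: Ntn1 was at 58.7 CPM in Dock5, 0.712 in Lsp1 and 14.4 in the other cells, and Unc5d at 45.1 CPM in Dock5, 278 in Lsp1 and 39.0 in the other cells. Per cell, Sema6a had medians of 193 and 5.62 CPM and Sema3e of 202 and 7.04 CPM. Lower in NGCs were the plexins Plxna2 (48.6 against 182 CPM, log2 fold -1.71), Plxna4 (-1.66), Plxna1 (-1.54) and Plxnb2 (-1.49) and the netrin receptor gene Unc5b (-1.87). These 4 plexins were the calls among 8 measured plexins and neuropilins at P30, where 6.32% of all genes were called lower, and at P15 the calls among 8 were both neuropilins, Nrp1 and Nrp2 (-1.10). Over the labelled subtypes at P15, with the sorts pooled, both neuropilins were highest in the 18 Vip Ptprt Pkp2 cells, at 252 and 99.98 CPM. Their lower level in NGCs thus need not hold against every other subtype. Epha3 was not called, with log2 folds of 0.04 and -0.25.

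The NGC marker list summed to 17211 CPM in NGCs and 2573 in the other cells at P15, and the Vip and Calb2 list to 284 and 6694. At P30 the sums were 9373 and 3102 and 386 and 4047. Sema5a at P15, and Sema5a, Sema6a, Sema3e and Epha4 at P30, passed the line under all 11 alternative settings. With all tdTOM+ cells against all tdTOM- cells, cells without a conclusive label included, Unc5c had log2 folds of 0.99 and 1.00, both below the line before rounding. Efna5 had 0.36 at P15 and 0.82 at P30, Ephb3 1.15 and 0.46, and Sema5b -0.53 and -1.09, so that Efna5 was called at neither age, Ephb3 at P15 and Sema5b at P30. Sema5a stayed called at both ages, at 1.00 and 1.16. In all, 3 members were called at P15 and 8 at P30 in place of 13 and 18.

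**Figure D3:**
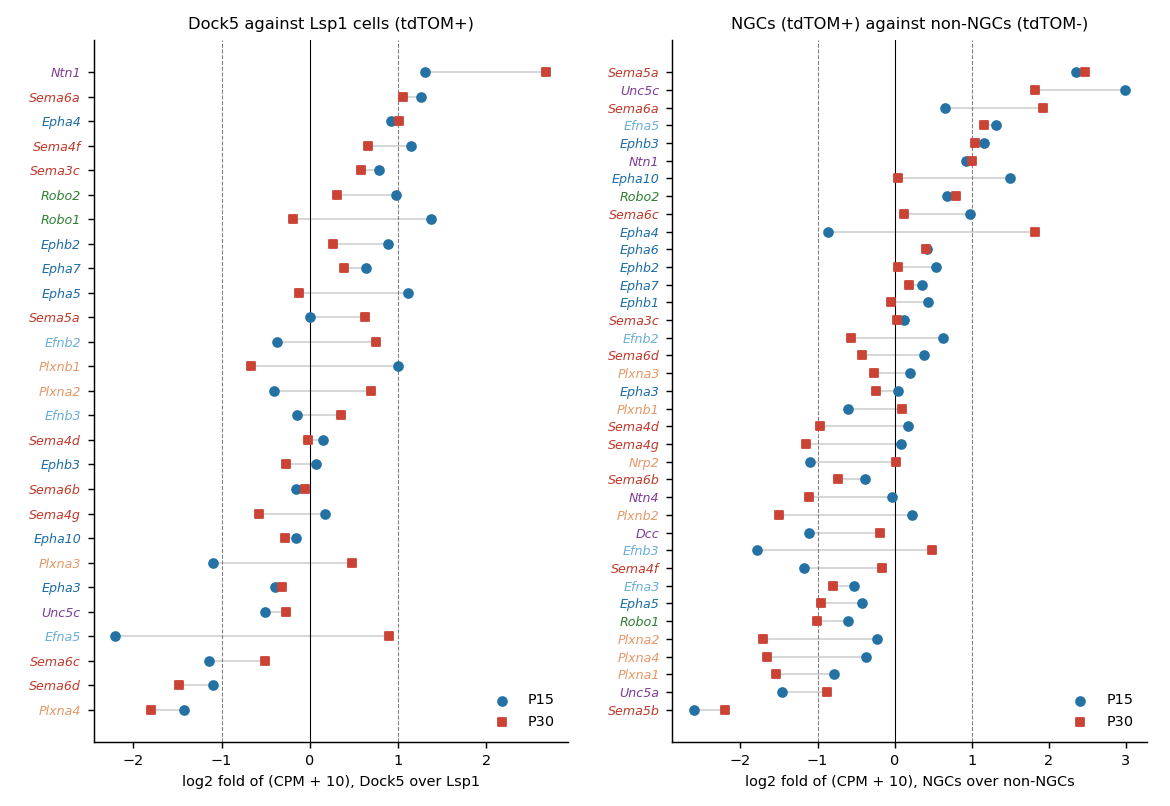
Log2 fold of (CPM + 10) at P15 (circles) and P30 (squares) for each member measured at both ages, Dock5 over Lsp1 cells on the left and NGCs over non-NGCs on the right. Grey bars join the ages of a gene, dashed lines mark the 2-fold line, and gene labels are coloured by family. Ntn1 and Sema6a lie right and Sema6d and Plxna4 left of the line at both ages in the left panel, and Sema5a and Unc5c right and Sema5b left of it in the right panel.

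**Figure D4:**
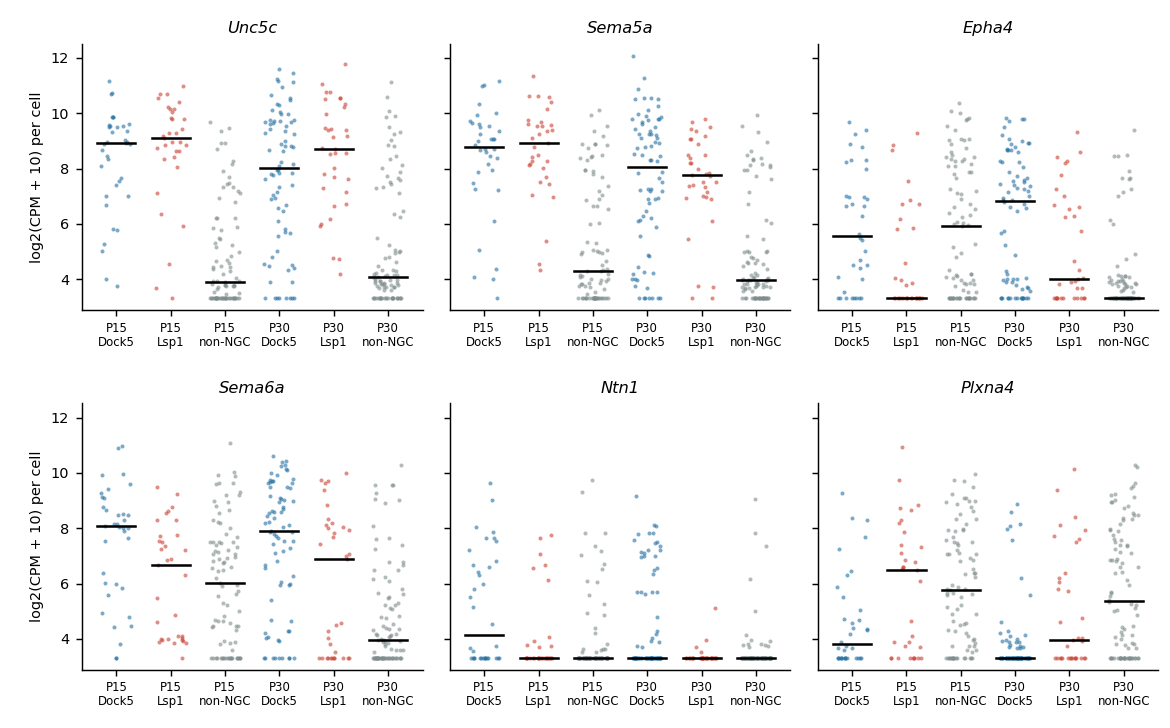
Log2(CPM + 10) of 6 members in single C1 cells labelled Dock5 or Lsp1 (tdTOM+) or with another subtype (tdTOM-, non-NGC) at P15 and P30. Each point is a cell, horizontal bars are medians, and the lowest band of points is cells with no count. Most Dock5 and Lsp1 cells lie above the non-NGC median for Unc5c and Sema5a, while for Ntn1 at P30 every median lies at no count.

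Over the labelled subtypes, with tdTOM+ and tdTOM- cells pooled and labels under 10 cells pooled by class, the members with the widest ranges at both ages were Sema5a, Unc5c, Sema5b, Efna5 and Ntn1. Their order rests on the smaller of the P15 and P30 ranges of log2(CPM + 10), which were 4.11, 4.03, 3.73, 3.61 and 3.57. The labels were assigned on the same values.

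Sema5a was lowest in other Sncg cells at both ages (7.53 and 16.7 CPM) and highest in Dock5 cells (560.2 and 451), with Lsp1 cells next at 514 and 361 CPM. At P15 the Vip Ptprt Pkp2 cells, which are not NGCs, also held 375 CPM, above the 326 CPM of Lamp5 Ntn1 Npy2r cells. Unc5c was highest in Lsp1 cells (665 and 569 CPM), then in Dock5 cells (439.9 and 486). In Lamp5 Ntn1 Npy2r cells it was at 39.1 CPM at P15 and 267 CPM at P30. The lowest Unc5c levels were 25.8 CPM in other Vip cells at P15 and 25.4 CPM in Vip Lect1 Oxtr cells at P30.

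Sema5b was highest in Vip subtypes. At P15 it reached 396 CPM in Vip Ptprt Pkp2 cells, 119.7 in other Vip and 66.1 in Vip Pygm C1ql1 cells, and at P30 126 in Vip Lect1 Oxtr and 70.3 in other Vip cells. Vip Igfbp6 Pltp cells were an exception, at 0.518 CPM. All Lamp5 and Sncg groups were at or below 5.56 CPM at both ages. Efna5 was highest in Lsp1 cells at P15 (137 CPM, against 33.3 in Dock5 and 23.1 in Lamp5 Ntn1 Npy2r cells) and in Lamp5 Ntn1 Npy2r cells at P30 (112 CPM, against 49.6 and 26.1).

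Ntn1, after which 1 subtype is named, was highest in that subtype, at 138 CPM in 12 Lamp5 Ntn1 Npy2r cells at P15 and 109 CPM in 17 cells at P30. Dock5 cells followed at 66.7 and 58.7 CPM. Lsp1 cells were at 17.1 CPM at P15 and 0.529 CPM at P30. Epha4 was at 144 and 209 CPM in Dock5 cells and 70.6 and 67.5 CPM in Lsp1 cells. At P15 it exceeded the Dock5 level in Lamp5 Ntn1 Npy2r cells (220.5) and in all 4 separately labelled Vip subtypes (from 214 to 315 CPM). Epha3 in turn was highest in Vip Crispld2 Kcne4 cells at P15 (172 CPM) and in Lamp5 Ntn1 Npy2r cells at P30 (136 CPM), with Lsp1 cells at 87.6 and 35.3 and Dock5 cells at 35.3 and 40.2 CPM.

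**Figure D5:**
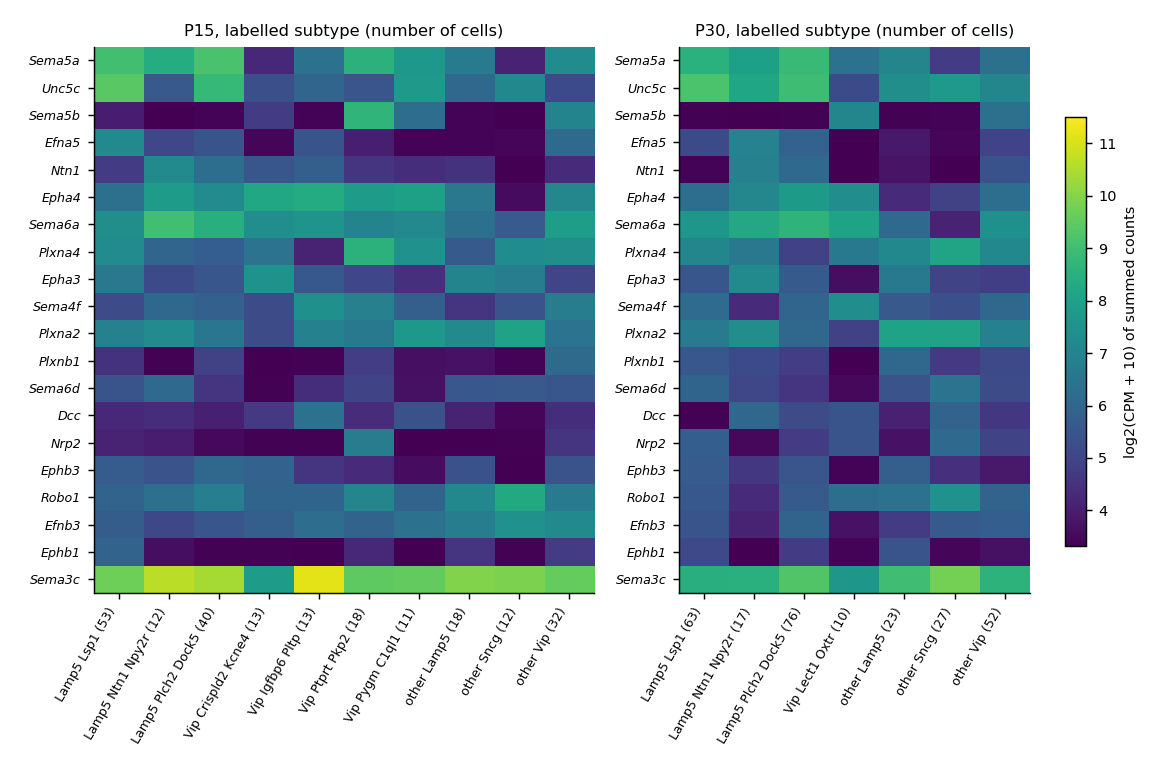
Log2(CPM + 10) of summed counts for the 20 members with the widest ranges over labelled subtypes, at P15 (left) and P30 (right), with the number of cells of each label in parentheses. Colours compare groups within a row and an age, not genes with each other. Sema5b is brightest in Vip Ptprt Pkp2 cells at P15 and Vip Lect1 Oxtr cells at P30 and dark in Lamp5 and Sncg groups, and Unc5c is brightest in Lamp5 Lsp1 and Lamp5 Plch2 Dock5 cells.

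Beyond the ligands and receptors, 52 co-receptors and intracellular effectors of the same pathways were followed as a list. Between POA and CGE 2 of 40 measured list genes were called, the adhesion molecules Cntn2 (log2 fold 1.03) and Chl1 (1.20), both higher in POA, where 2.00% of all measured genes were called (1.35% in CGE). Between stages in POA 5 of 41 list genes were called higher in post-mitotic-like cells (2.84% of all measured genes) and 0 higher in progenitor-like cells (5.37%). In CGE the counts were 6 of 38 (5.33%) and 2 (5.75%). The collapsin response mediators Crmp1 and Dpysl3, the adhesion molecule L1cam and the kinase gene Pak1 were higher in post-mitotic-like cells of both regions, where 2.27% of all genes were. Crmp1 had log2 folds of 1.34 in POA and 1.83 in CGE. In C1 cells 10 of 42 list genes were higher in tdTOM+/GFP+ cells (7.74% of all measured genes), led by Crmp1 (2.04) and L1cam (1.89), and 7 higher in FlashTag+ cells (14.49%), led by Rgma (-2.55), a ligand of neogenin, and Dock1 (-2.02).

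In the cortex 2 of 44 list genes were higher in Dock5 (8.12% of all measured genes) and 3 in Lsp1 cells (7.68%) at P15, and 7 (8.75%) and 6 (6.91%) of 45 at P30. Chn2, which lowers Rac activity, was higher in Lsp1 cells at both ages (log2 folds -1.39 and -1.03). Against non-NGCs 5 were higher in NGCs (5.57%) and 5 lower (7.02%) at P15, and 2 higher (6.28%) and 5 lower (6.32%) at P30. Neo1, which encodes the netrin and Rgm receptor neogenin, was lower in NGCs at both ages (25.6 against 85.7 CPM and 14.1 against 84.2 CPM, log2 folds -1.43 and -1.97), as were Dscam (-1.72 and -2.16), Enah (-1.35 and -1.42) and Chn1 (-1.22 and -1.29). In patch-seq cells 1 of 42 was higher in Dock5 (6.98%) and 8 in Lsp1 cells (8.93%). The list genes named here were chosen after their values were seen.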

How the data were processed

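Per the labels and the methods, the authors aligned reads to mm10 with STAR (C1 plates) or Cell Ranger (droplets) and deposited UMI counts per gene, with UMI-tools collapsing molecular tags and exonic reads counted by strand on the plates, and with versions not given in the labels. For patch-seq the authors deposited whole-number counts as well. The authors removed doublets and empty wells of the plates by imaging and, per the methods, vascular, red blood, Cajal-Retzius, immune and glutamatergic clusters from the droplets. No doublet caller was run here, and leaving out the droplets with the most UMIs (top 5%) was 1 alternative.

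The counts of all cells in a group were added up and scaled to CPM, and log2 folds were taken of (CPM + 10) with Python 3.11.15, numpy 2.4.6, scipy 1.17.1 and pandas 2.3.3. A gene was measured where the average of both groups was at least 10 CPM and at least 10 cells held a count, and called at a log2 fold of at least 1 in size. Every gene of a comparison was handled in the same way to give the background shares. Since the labels tie no cell to an animal, each group was handled as 1 sample and no test across genes was run. The code was tested on simulated data with known folds.

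Named were, per comparison and direction, up to 6 called members with the largest folds, Epha3 and Epha4 throughout, members called in both ages or classes, the 5 with the widest subtype ranges, and Ntn1. The members, the list of 52 pathway genes and this rule were chosen with earlier results of these data known. Cells with an inconclusive subtype (166 at P15 and 310 at P30) entered only the comparison of all tdTOM+ with all tdTOM- cells. Promoters came from RefSeq (GRCm38.p6) and gene positions from GENCODE vM21 (GRCm38). Alternatives changed the CPM added (1 or 50), the filter on low genes (50 CPM or none), the measure of level, depth, centring, plate rows and cells, and 2 were added after seeing the data: droplets with no count of a glutamatergic or Cajal-Retzius marker, and patch-seq without the deepest cell of each subtype.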

Additional observations from a re-analysis of the deposited data

Results flagged for a closer look

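For 4 members the log2 fold was at least 0.5 in size at both ages but had opposite signs at P15 and P30, and in each case the difference between ages was not tested. Efna5 was lower in Dock5 than in Lsp1 cells at P15 (log2 fold -2.21) and had a log2 fold of 0.89 at P30. For Plxnb1, a receptor for class 4 semaphorins, Dock5 over Lsp1 was 1.00 at P15, just below the line before rounding, and -0.67 at P30. Epha4 in NGCs over non-NGCs was -0.87 at P15 and 1.82 at P30, the latter above the line under all 11 alternative settings. The B-type ephrin Efnb2 in NGCs over non-NGCs was 0.62 at P15 and -0.57 at P30. The ages were separate plates, and age and plate cannot be told apart. Subtype make-up also differed: with the sorts pooled, Sncg cells numbered 12 at P15 and 27 at P30. Vip Igfbp6 Pltp cells numbered 13 at P15 and under 10 at P30. Epha4 at P15 ran from 1.93 CPM in Sncg to 315 CPM in Vip Igfbp6 Pltp cells. The part of make-up in the folds over non-NGCs was not tested.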

How the results depend on the processing

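Of 106 named calls 37 passed the line under every setting tried. Most losses came with 50 CPM added in place of 10 (62 calls) and with the mean over cells of log2(CPM + 10) (51), and fewer with all tdTOM+ against all tdTOM- cells (16), thinning to 1 depth (12), plate rows 1 to 20 (11) or 21 to 40 (8), and the mean CPM of single cells (10). A single fold changed sign: Plxna2 in patch-seq, from -1.72 to 0.14 with the mean CPM of single cells.

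With 50 CPM added, members called went from 8 to 5 and from 10 to 5 between POA and CGE in progenitor-like and post-mitotic-like cells, from 4 to 0 and from 11 to 1 between stages in POA and CGE, from 21 to 10 between tdTOM+/GFP+ and FlashTag+ cells, from 14 to 3 and 7 to 3 between Dock5 and Lsp1 cells at P15 and P30, from 13 to 4 and 18 to 7 between NGCs and non-NGCs, and from 7 to 1 in patch-seq. With a filter at 50 CPM, where fewer genes enter by construction, the counts were 6 between regions in post-mitotic-like cells, 3 between stages in CGE, 12 for tdTOM+/GFP+, 7 and 4 between subtypes at P15 and P30, 6 and 10 for NGCs, and 3 in patch-seq. With the mean of log2 values they were 4 between stages in CGE, 12 for tdTOM+/GFP+, 5 and 9 for NGCs, and 2 in patch-seq. Thinning gave 7 between stages in POA and 4 in patch-seq, adding 1 CPM gave 10 and 14, and the mean CPM of single cells gave 4 in patch-seq. At P30 between subtypes, leaving out the cell with the largest count and taking plate rows 1 to 20 each gave 11. All tdTOM+ against all tdTOM- cells, where both sides mix NGCs with other subtypes, gave 3 at P15 and 8 at P30. The cause was not tested. The other 98 of 130 counts stayed within 1.5 times their main value.

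No paired analysis was possible because the labels tie no cell to an animal and give no replicate numbers. Depth limits low members: a count of 0 to a few in a subtype of about 30 cells rests on few molecules, and the intervals given cover counting error only. Whether other animals would show the same folds cannot be read from groups handled as 1 sample each.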
